A study of Mus musculus with 28 samples.

Results

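The genes described here are 43 textbook targets of the transcription factor Myc that make ribosomes, nucleotides and polyamines, or that are commonly read as Myc output in other ways. They were chosen by symbol from a list set with earlier results of these data known. All 43 were found among the 32544 genes of each of the 2 deposited count tables, one for 16 male and one for 12 female livers. Bulk RNA sequencing on a DNBSEQ instrument was done on total RNA of snap-frozen liver from C57BL/6 mice aged 13 weeks. Controls (CT) were floxed mice, and knockouts (KO, EC-Myc KO) had c-Myc deleted in endothelial cells. Tamoxifen was given to both genotypes at 5 weeks of age to start Cre recombination, and 2 weeks later feeding began with either the control diet, which was low in fat (CTD), or one rich in fat and cholesterol (HFC), and lasted 5 weeks. These steps sum to less than the labelled age. Each of the 4 groups, CT CTD, KO CTD, CT HFC and KO HFC, had 4 males and 3 females. The promoter that drives the Cre is not given in the sources used here. The labels place the deletion in endothelial cells, while the RNA came from the whole organ, in which summed endothelial markers ran from 185 to 441 CPM, that is counts scaled to a common library total, and summed hepatocyte markers from 76300 to 188000 CPM.

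Ribosomes are built in the nucleolus, where RNA polymerase I transcribes ribosomal RNA, small nucleolar RNA-protein particles (snoRNPs) guide its chemical modification, and many assembly factors cut, fold and export the small and large subunits. Myc, bound to DNA with its partner Max at E-box letters, raises transcription of genes at nearly every step of this pathway, and of the enzymes that supply purines, pyrimidines and polyamines to growing cells. In liver this program is best known from regeneration and tumors, while most hepatocytes of an adult liver are not dividing.

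The palindrome CACGTG, the E-box form that Myc and Max prefer, was searched in RefSeq promoter windows of 300 bases on GRCm38.p6, which run from 250 bases before to 50 after each annotated start. A window was found for 37 of the 43 genes, and the 6 without one were Fbl, Rrp12, Rrs1, Npm1, Bop1 and Srm. CACGTG was present for 13 of the 37 (35.1%), against 8.09% of all 27025 genes with a window and 11.1% of the 10610 of them that were tested in these livers. By window, 16 of 48 (33.3%) of these genes' windows held it, against 7.15% of 32851. The genes were listed as Myc targets, so these shares describe the list and are no independent support for it. The looser pattern CANNTG, which includes CACGTG, was in 27 of the 37 (73.0%), against 75.0% of all genes and 68.6% of tested ones, a share near the background. Both patterns read the same on either strand. The 13 genes were Mybbp1a of the RNA polymerase I group, Wdr43 and Utp20 of small subunit assembly, Nop2 and Pes1 of large subunit assembly, Impdh2, Paics and Nme1 of nucleotide synthesis, and Cdk4, Ldha, Eif4e, Eif5a and Hspd1 of the remaining targets. None of the 7 snoRNP genes with a window held it.

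Promoters of 5 genes that recur below are shown 5′ to 3′ on the strand of the gene, with every CACGTG in capitals and all other bases in lower case. Cdk4, the cyclin D partner kinase, held 4 copies. Paics, a purine synthesis enzyme, held a single copy 203 bases before the start. Hspd1, the mitochondrial chaperonin, held a single copy 80 bases before the start in the window shown, while the window of its other annotated start held none. In Mybbp1a, a nucleolar partner of RNA polymerase I, the copy began at base 41 after the start. Odc1, the gene with the smallest p-value for diet below, held none in its window. In that order the windows are chr10:127063285-127063584 on the plus strand, chr5:76951052-76951351 on the plus strand, chr1:55088194-55088493 on the minus strand, chr11:72441077-72441376 on the plus strand and chr12:17544623-17544922 on the plus strand.
Cdk4: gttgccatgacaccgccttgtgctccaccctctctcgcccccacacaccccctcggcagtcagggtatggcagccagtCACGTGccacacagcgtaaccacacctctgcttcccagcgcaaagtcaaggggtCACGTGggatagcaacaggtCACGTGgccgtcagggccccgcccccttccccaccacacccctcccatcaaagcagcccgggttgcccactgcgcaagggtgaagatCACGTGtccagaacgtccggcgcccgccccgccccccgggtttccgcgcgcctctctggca
Paics: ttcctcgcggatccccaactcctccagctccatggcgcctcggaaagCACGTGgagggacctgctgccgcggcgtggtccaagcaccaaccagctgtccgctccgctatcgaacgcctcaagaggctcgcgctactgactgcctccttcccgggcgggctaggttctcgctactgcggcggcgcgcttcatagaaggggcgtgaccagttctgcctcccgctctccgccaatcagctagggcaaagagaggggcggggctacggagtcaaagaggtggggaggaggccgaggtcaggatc
Hspd1: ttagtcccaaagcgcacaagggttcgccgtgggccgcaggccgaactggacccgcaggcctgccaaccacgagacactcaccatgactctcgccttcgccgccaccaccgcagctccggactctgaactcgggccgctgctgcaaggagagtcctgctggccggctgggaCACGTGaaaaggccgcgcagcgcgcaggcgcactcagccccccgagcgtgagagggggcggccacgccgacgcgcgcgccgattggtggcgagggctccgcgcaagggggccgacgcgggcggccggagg
Mybbp1a: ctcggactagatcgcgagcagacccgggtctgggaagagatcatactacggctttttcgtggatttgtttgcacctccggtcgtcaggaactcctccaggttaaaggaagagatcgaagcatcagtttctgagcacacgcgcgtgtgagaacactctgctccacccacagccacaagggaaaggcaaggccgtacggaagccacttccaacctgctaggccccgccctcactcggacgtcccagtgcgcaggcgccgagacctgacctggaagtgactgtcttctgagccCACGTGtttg
Odc1: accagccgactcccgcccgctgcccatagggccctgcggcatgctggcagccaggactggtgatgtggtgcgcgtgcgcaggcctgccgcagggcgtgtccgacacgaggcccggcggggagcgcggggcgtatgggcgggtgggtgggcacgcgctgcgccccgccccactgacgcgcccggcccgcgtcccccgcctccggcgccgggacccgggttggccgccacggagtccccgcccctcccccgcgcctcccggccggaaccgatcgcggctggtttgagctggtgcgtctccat
A match of letters is a description of these windows and does not show that Myc was bound there. Described by medians with no test, the log2 KO difference averaged over diets was 0.02 in the 13 genes with CACGTG and 0.01 in the 24 without it in males, and -0.04 and 0.05 in females. The diet difference averaged over genotypes had medians of -0.08 with and -0.02 without it in males, and -0.00 and 0.02 in females. The slopes on Myc within groups had medians of -0.03 and 0.01 in males, and 0.02 and 0.06 in females.

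Another shared feature was the snoRNA genes carried inside them, which the list of symbols did not use. In the GENCODE M21 annotation, 8 of the 43 genes (18.6%) had at least 1 snoRNA gene within their bounds, against 1.56% of the 13493 protein-coding genes tested. Nop56 held 5, Nop58 held 4, and Ncl, Wdr43 and Gnl3 held 3 each. Ppan held 2, and Dkc1 and Odc1 held 1 each. Several of these hosts encode proteins of the very snoRNPs that the carried RNAs guide. A pair of purine synthesis genes, Ppat and Paics on chromosome 5, lie head to head and overlap by 272 bases, and the chaperonin genes Hspd1 and Hspe1 on chromosome 1 overlap by 112 bases. In all, 16 of the 43 genes overlapped a gene of the opposite strand in the tables. This counts whole gene bounds, introns included, and the share over all genes was not counted. Whether counting used strand is not given in the sources used here, so reads from such overlaps cannot be told apart. Npm3, Ldha, Hspd1 and Hspe1 have pseudogene copies named after them in the tables, and their counts are uncertain to that extent. Copies under other names were not searched for, so the remaining genes are not shown to be free of them.

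All 43 genes passed the filter on low counts in both tables, in which 14078 genes were tested in males and 13999 in females. Library totals lay between 22154774 and 22652285 counts in males and between 18741939 and 19195502 in females. Values below are CPM on library totals scaled by trimmed mean of M values (TMM), which sets each library relative to its typical gene. The TMM factors of CTD livers lay between 0.862 and 0.999 in males and between 0.842 and 0.939 in females, and those of HFC livers between 1.02 and 1.19 and between 1 and 1.17. Animals were separate mice, and no 2 libraries of a group agreed within sampling noise (lowest chi-square per degree of freedom 12.8 in males and 21.0 in females). Animals on CTD had numbers from 298 to 320 and those on HFC from 412 to 543, and if these mark cohorts, cohort and diet cannot be told apart. Tests are edgeR quasi-likelihood F tests with p-values adjusted over all tested genes, and a gene is said to have risen or fallen where its adjusted p was under 0.05.

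Levels per length spanned a wide range. On CTD in male controls, Ldha, the lactate dehydrogenase subunit, stood at 186 CPM per kilobase of exon, Hspd1 at 141, and Eif5a, the translation factor that carries hypusine, at 100. Female controls gave 187, 117 and 112 CPM per kilobase for the same genes. The high levels thus belonged to metabolic, chaperone and translation genes, followed by Paics at 68.3 in males and 58.1 in females, Npm1, the nucleolar shuttle chaperone, at 43.7 and 60.7, and Hspe1, the partner of Hspd1, at 43.3 and 70.4. Among the lowest were Wdr12, a large subunit assembly factor, at 1.08 and 1.12 CPM per kilobase, and Rrp12, which acts in export of the small subunit, at 1.53 and 0.889. Cad, which carries the first steps of pyrimidine synthesis, stood at 1.44 and 0.69. Other assembly genes lay higher, such as Pes1 at 8.27 and 9.17 and Nop16 at 8.69 and 8.81. The length used is that of all annotated exons joined, and the order depends on it. Wdr12 has 11955 such bases and Nop2 2772, so Nop2 stood at 5.48 per kilobase in males. Without length, the 2 genes stood at 12.95 and 15.18 CPM in CT CTD males. 

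The median spread between animals of a group was smaller than over all tested genes, a set not matched for level. The median within-group SD on the log2 scale was 0.15 in males and 0.173 in females, against 0.177 and 0.224 over all tested genes. In males Eif5a was steadiest at 0.056 and Gar1, a box H/ACA snoRNP protein, varied most at 0.305. In females Eif4e, the cap-binding factor, was steadiest at 0.099 and Ppan, a large subunit assembly factor, varied most at 0.311. The mean log2 deviation of the 43 genes in an animal, from each gene's mean over the table, lay between -0.126 (KO HFC male 539) and 0.0994 (CT CTD male 301), and between -0.078 (KO HFC female 413) and 0.098 (KO HFC female 419). The pooled within-group SD of that mean was 0.0688 in males and 0.0639 in females.

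Myc itself (chr15:61985391-61990374, GRCm38) was low and variable in every group, and its mean was not lower in any knockout group. In CT CTD males Myc stood at 6.09, 4.73, 7.80 and 7.05 CPM, in KO CTD males at 20.1, 6.87, 14.9 and 3.09, in CT HFC males at 6.29, 3.58, 11.3 and 12.4, and in KO HFC males at 20, 8.90, 5.62 and 11.2. In females the values were 5.44, 12 and 4.59 CPM in CT CTD, 7.26, 20.5 and 7.80 in KO CTD, 9.70, 5.46 and 4.38 in CT HFC, and 12.1, 4.64 and 13.3 in KO HFC. The groups overlapped throughout, and the highest animal of each table was a knockout. The KO difference averaged over diets was 0.63 log2 in males (95% interval -0.21 to 1.46, edgeR adjusted p = 0.913) and 0.66 in females (-0.22 to 1.53, edgeR adjusted p = 1). Where in the gene the reads fell is not shown by a gene-level count, and a loss confined to endothelial cells cannot be told apart from Myc RNA of other cells in whole liver.

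The knockout comparison asks whether these targets differ when endothelial Myc is deleted. None of the 43 genes rose or fell in KO livers in either sex on either diet, nor did any other tested gene, so the background of called genes was 0% in all of these contrasts. At an unadjusted p under 0.05 there were 3 of the 43 genes on CTD, 1 on HFC and 3 averaged over diets in males, and 4, 0 and 1 in females. Over all tested genes the same unadjusted counts were 949, 653 and 788 in males and 446, 311 and 227 in females. Averaged over diets, the median of the 43 log2 differences was 0.01 in males, where that of all tested genes was -0.00, and 0.04 in females. The differences ran from -0.18 to 0.15 in males and from -0.22 to 0.27 in females. In males 25 were positive and 18 negative, and in females 26 and 17, with no count of signs over all tested genes to set beside them.

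**Figure D1:**
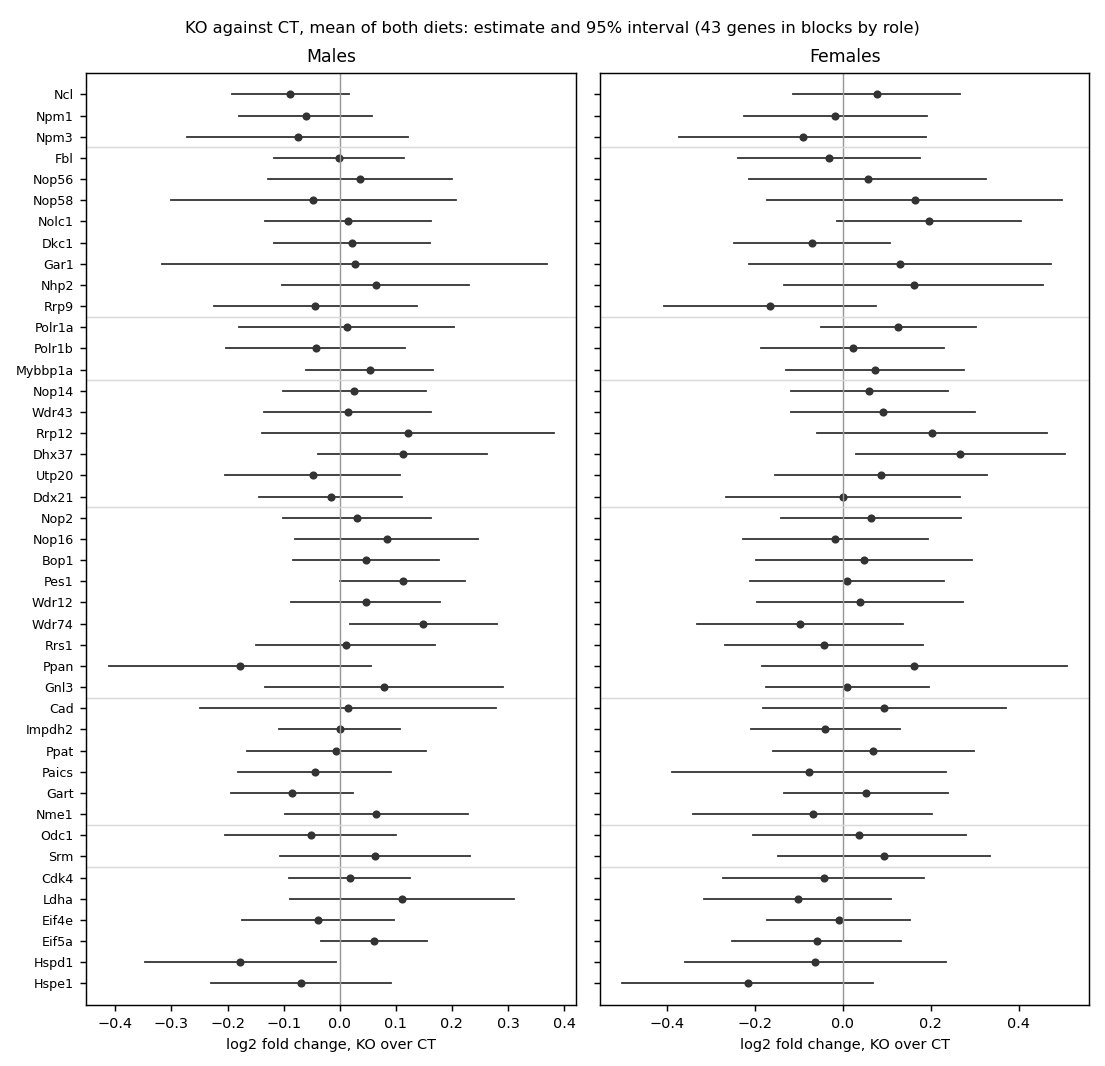
Log2 difference of KO over CT, averaged over both diets, for the 43 genes in blocks by role (males left, females right; points are edgeR estimates, bars 95% intervals from the fit). Estimates sit between -0.18 and 0.15 in males and between -0.22 and 0.27 in females, and no gene passed the test.

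These data also bound how large a KO difference in whole-liver RNA, averaged over both diets, could have been. They do not bound a difference confined to endothelial cells, whose RNA was not measured apart. A difference on a single diet can be larger than this average, as for Dhx37 and Rrp12 in CTD females below. Each interval is for 1 gene and is not corrected for the number of genes. In males the 95% intervals of all 43 genes lay within 0.5 log2 of zero, the widest reach being -0.41 for Ppan and 0.38 for Rrp12. In females 40 of 43 did so, the exceptions being Dhx37, Ppan and Hspe1. The intervals are those of a fit that shares its spread over the groups, with standard errors (SE) approximated from the F statistic. By role, the 9 large subunit assembly genes had a median KO difference of 0.05 in males and 0.01 in females, the 8 snoRNP genes 0.02 and 0.09, the 6 nucleotide synthesis genes -0.00 and 0.01, and the 3 nucleolar chaperones -0.08 and -0.02. The 6 remaining targets (Cdk4, Ldha, Eif4e, Eif5a, Hspd1, Hspe1) had medians of -0.01 and -0.06.

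The KO differences with the smallest p-values are given next, none of which passed the test. Dhx37, an RNA helicase that releases the U3 snoRNP from the small subunit precursor, stood at 12.5, 10.0, 11.3 and 11.8 CPM in CT CTD males and at 14.6, 13.5, 13.1 and 13.7 in KO CTD males. Its groups did not overlap, and the log2 difference was 0.27 (SE 0.10, edgeR adjusted p = 0.730). In females the CT CTD values were 6.93, 8.53 and 5.50 CPM and the KO CTD values 11.5, 11.8 and 9.90, again without overlap, with a log2 difference of 0.66 (SE 0.16, unadjusted p = 0.00103 and adjusted p = 0.999, edgeR). Both sexes thus showed a higher level in KO on CTD that did not pass the adjustment over all genes. On HFC the Dhx37 values overlapped, with 13.4, 13.3, 16.6 and 12.9 CPM in CT and 16, 13.2, 12.8 and 12.6 in KO males, and 11.3, 9.95 and 11.1 in CT and 9.90, 9.95 and 9.79 in KO females. Averaged over diets the female difference was 0.27 (SE 0.11, edgeR adjusted p = 1). The groups without overlap on CTD numbered 2 of 43 higher and 0 lower in males, where the background was 1.94% and 2.05% of tested genes, and 3 and 3 of 43 in females, where it was 4.48% and 4.7%.

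Wdr74, a large subunit assembly factor, stood at 12.1, 10.3, 10.7 and 13.3 CPM in CT CTD males and at 14.7, 14.6, 13.1 and 12.9 in KO CTD males. These groups overlapped slightly, with a difference of 0.25 (SE 0.09, edgeR adjusted p = 0.699), and averaged over diets it was 0.15 (SE 0.06, edgeR adjusted p = 0.85). Its HFC values were 12, 13.2, 13 and 11.4 CPM in CT males and 12.8, 13.2, 12.3 and 12.9 in KO males. In CTD females the sign was the other one, with 21.1, 16.9 and 17.9 CPM in CT and 15.3, 13.0 and 16.5 in KO, all KO values below all CT values. Nop56, a core box C/D snoRNP protein, and Cdk4 were likewise wholly lower in KO CTD females, at 20.8, 17 and 18.7 against 21.4, 21.1 and 21.8 CPM, and at 53.9, 48.4 and 55.9 against 71.4, 60.7 and 58.1 CPM. Rrp12 in CTD females stood at 3.62, 4.50 and 3.46 CPM in CT and 5.43, 5.27 and 6.00 in KO, all KO values above all CT values, with a difference of 0.53 (SE 0.17, edgeR adjusted p = 0.999). Nolc1, a nucleolar chaperone of snoRNPs, stood in the same females at 22.1, 24.5 and 20.7 CPM in CT and 32.8, 28.3 and 25.3 in KO, also without overlap, and averaged over diets its difference was 0.20 (edgeR adjusted p = 1). On HFC its female values met again, at 23.4, 23.7 and 23.5 in CT and 21.0, 22.3 and 28.9 in KO.

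On HFC the KO differences with the smallest p-values were the following. Gart, a trifunctional purine synthesis enzyme, stood at 29.8, 31.7, 27.9 and 27.8 CPM in CT HFC males and at 23.9, 28.4, 26.7 and 25.9 in KO HFC males, with a difference of -0.16 (SE 0.07, edgeR adjusted p = 0.958). Nop2, a methyltransferase of large subunit ribosomal RNA, stood at 16.1, 16.9, 18.2 and 16.8 CPM in CT HFC males against 15.2, 15.9, 13.8 and 16.4 in KO HFC males, with a difference of -0.15. Each pair of groups overlapped in at least 1 animal. In HFC females, Gnl3, the nucleolar GTPase nucleostemin, stood at 32.4, 30.2 and 28.1 CPM in CT and 35.6, 32.0 and 39.9 in KO, a difference of 0.25 (SE 0.12, edgeR adjusted p = 1). Nhp2, a box H/ACA snoRNP protein, stood at 15.7, 16.2 and 16.6 CPM in CT and 25.2, 14.8 and 21.3 in KO, a difference of 0.34 (edgeR adjusted p = 1) with the KO animals on both sides of the controls. Hspd1 in males was the remaining small p, at -0.18 averaged over diets (SE 0.08, edgeR adjusted p = 0.884), and its values are given with the diet below.

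No gene of the 43 passed the test of genotype by diet interaction, and none did among all tested genes (background 0% in both sexes). Nop2 in males had the smallest p, with an interaction of -0.36 log2 (SE 0.13, edgeR adjusted p = 0.730), its CTD values being 17.2, 13.2, 15.6 and 14.6 CPM in CT and 17.2, 19.7, 16.7 and 16.7 in KO. Nop14, a small subunit assembly factor, followed at -0.30 (SE 0.12, edgeR adjusted p = 0.798). Its values were 18.5, 15.4, 16.5 and 15.4 CPM in CT CTD, 17.8, 20.6, 18.6 and 17.3 in KO CTD, 19.7, 17.8, 19.7 and 18.2 in CT HFC, and 17.5, 16.4, 15.8 and 19.6 in KO HFC males. In females the interaction was -0.79 for Dhx37 (SE 0.22, edgeR adjusted p = 0.991) and 0.47 for Gnl3 (SE 0.17, edgeR adjusted p = 0.991). For Dhx37, the 3 CT CTD females lay below all other females. The CT CTD males, at up to 12.48 CPM, likewise lay below all other males, the lowest of which stood at 12.63. The Dhx37 differences for KO on CTD, interaction and diet in controls all share that CT CTD group, so they are not separate observations.

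Since Myc differed between animals of a group, the 43 genes were also fitted on log2 Myc within groups. The slope is the log2 change of a gene per log2 unit of Myc, and 0 of 43 genes passed the test in either sex (background 0% of 14077 genes in males and 0% of 13998 in females). At an unadjusted p under 0.05 there was 1 of the 43 in males and 0 in females, where 929 and 535 of all tested genes reached it. The median slope was 0.00 in males, with a range from -0.08 to 0.09, and 0.06 in females, with a range from -0.15 to 0.20. All 43 intervals lay within 0.5 on either side of zero in both sexes, the farthest reach being -0.33 and 0.27 in males and -0.41 and 0.49 in females. In females 31 slopes were positive and 12 negative, and in males 23 and 20. Signs over all tested genes were not counted, so these numbers do not show that the 43 genes followed Myc.

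Impdh2, the enzyme that commits purines to guanine nucleotides, had the smallest p in males, with a slope of -0.08 (SE 0.03, edgeR adjusted p = 0.735). Its male values were 27.1, 26.2, 25.0 and 25.4 CPM in CT CTD, 25.9, 26.6, 25.5 and 30.3 in KO CTD, 24.6, 29.0, 26 and 24.3 in CT HFC, and 24.0, 25.1, 24.1 and 26.1 in KO HFC. The highest of these, 30.3 CPM, came from KO CTD animal 311, which had the lowest Myc of the table at 3.09 CPM. Paics followed with a slope of -0.07 (SE 0.05, edgeR adjusted p = 0.791). Its male values were 216, 212, 216 and 213 CPM in CT CTD, 215, 196, 228 and 215 in KO CTD, 207, 220, 173 and 195 in CT HFC, and 154, 198, 207 and 191 in KO HFC, the lowest being KO HFC animal 414, where Myc stood at 20 CPM. In females Cad had a slope of 0.18 (SE 0.10, edgeR adjusted p = 0.997), with 6.43, 6.02 and 4.48 CPM in CT CTD, 5.78, 7.10 and 6.84 in KO CTD, 9.04, 6.80 and 7.26 in CT HFC, and 8.49, 6.78 and 7.30 in KO HFC. In KO CTD females the animal with the most Myc, 309, also had the most Cad, while in CT CTD females animal 308 had the most Myc and the middle value of Cad. Nop58, which shares box C/D snoRNPs with Nop56, had a slope of 0.20 (SE 0.13, edgeR adjusted p = 0.997). It stood at 16.7, 17.2 and 19.3 CPM in CT CTD, 17.8, 20.9 and 15.8 in KO CTD, 16.7, 16.4 and 20.5 in CT HFC, and 29.7, 13.8 and 22.1 in KO HFC females. The widest spread was among the KO HFC females, where Myc stood at 12.1, 4.64 and 13.3.

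**Figure D2:**
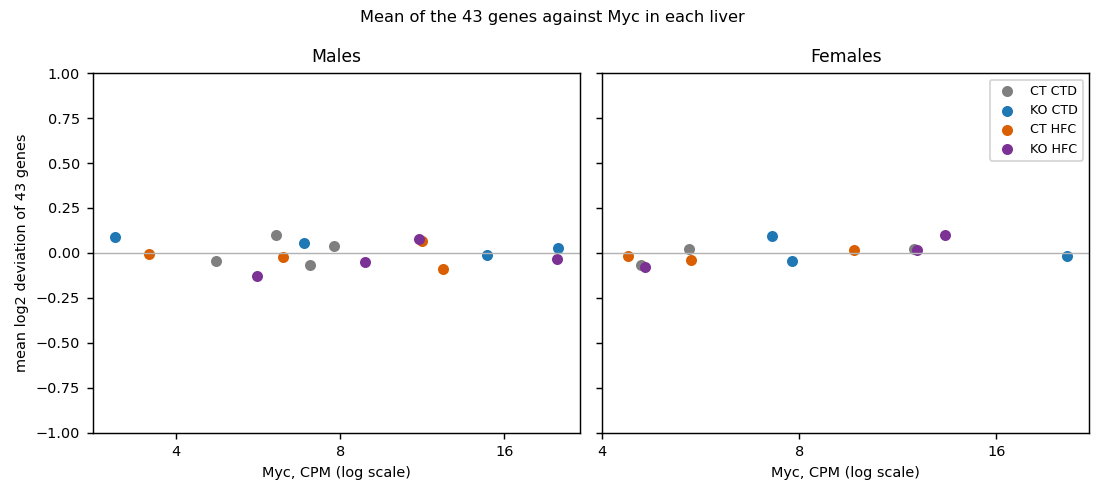
Mean log2 deviation of the 43 genes from their means over the table (vertical axis) against Myc in CPM on a log axis, 1 point per liver, males left and females right, colored by group. The means stay between -0.126 and 0.0994 while Myc runs from 3.09 to 20.5 CPM.

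The diet comparison gave the differences that passed the test, and they were small. Averaged over genotypes, 7 of the 43 genes fell and 1 rose on HFC in males, and 3 fell and 2 rose in females. Odc1, Hspd1 and Ppat fell in both sexes. In males 40.8% of all tested genes passed this test (20.4% higher and 20.4% lower), and in females 19.3% did (10.4% higher and 8.98% lower), so the 43 genes were called at 8 of 43 and 5 of 43, a smaller share than the background in each sex. Their median log2 difference was -0.03 in males and 0.00 in females, where that of all tested genes was -0.01 and 0.01. All of these values are relative to the typical gene of each library. With library totals in place of TMM, the median of all genes stood at 0.24 log2 in males and 0.31 in females, and then 30 of the 43 genes in males and 25 in females were called higher on HFC and none lower (background 57.6% and 47.1%), with 25 of 43 signs changed in males and 17 in females. Leaving out 1 animal at a time gave 6 called genes (without CT HFC male 416) to 12 (without CT CTD male 320) in males. In females it gave 3 (without CT HFC animal 420, KO CTD animal 307 or KO CTD animal 309) to 8 (without KO HFC animal 413). The calls of Odc1, Hspd1, Ppat and Utp20 in males and of Odc1, Ppat and Gnl3 in females held without any single animal.

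**Figure D3:**
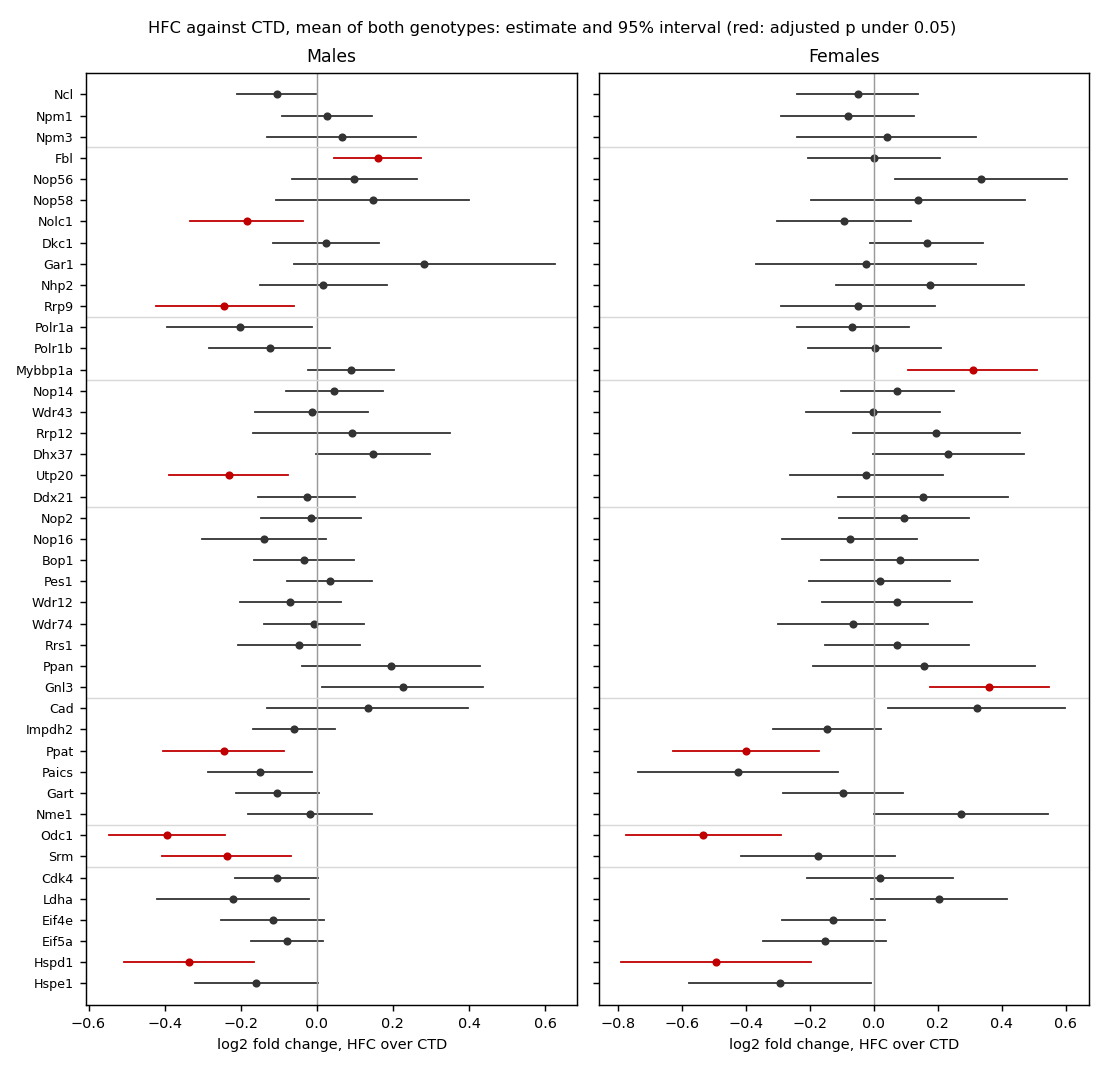
Log2 difference of HFC over CTD, averaged over both genotypes, on TMM-scaled library totals, for the 43 genes in blocks by role (males left, females right; points are edgeR estimates, bars 95% intervals, red where adjusted p was under 0.05). Odc1, Hspd1 and Ppat lie left of zero and are red in both sexes, while most of the assembly factors straddle zero.

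Odc1, the rate-limiting enzyme of polyamine synthesis, fell in both sexes. In males it stood at 75.7, 75.4, 68.7 and 56.1 CPM in CT CTD, 73.0, 61.9, 64.5 and 70.7 in KO CTD, 51.0, 57.9, 58.5 and 45.6 in CT HFC, and 52.3, 51.0, 44.6 and 54.4 in KO HFC. Only CT CTD animal 320, at 56.1 CPM, lay within the range of the HFC males. In females it stood at 49.5, 61.0 and 52.4 CPM in CT CTD, 68.1, 64.2 and 58.2 in KO CTD, 43.3, 42.0 and 42.9 in CT HFC, and 27.8, 44.8 and 42.8 in KO HFC, so that every HFC female lay below every CTD female. The log2 difference averaged over genotypes was -0.40 in males (SE 0.07, edgeR adjusted p = 0.000343) and -0.53 in females (SE 0.11, edgeR adjusted p = 0.00628). With library totals the differences kept their sign and missed the threshold in both sexes. Srm, which makes spermidine from the product of Odc1, fell by 0.24 in males (SE 0.08, edgeR adjusted p = 0.0255), and this sign turned with library totals. The call was lost without animal 301, 311 or 416 (edgeR adjusted p up to 0.06). Its male values were 23.1, 19.8, 18.6 and 18.5 CPM in CT CTD, 22.2, 19.1, 19.2 and 24.9 in KO CTD, 14.6, 18.4, 18.8 and 17.7 in CT HFC, and 21.1, 16.4, 16.8 and 16.6 in KO HFC, so the diets overlapped. In females Srm differed by -0.18 and did not pass the test.

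Hspd1 and Hspe1 form the chaperonin that folds proteins in the mitochondrial matrix. Hspd1 stood at 422, 401, 368 and 299 CPM in CT CTD males, 310, 324, 335 and 355 in KO CTD, 350, 273, 291 and 273 in CT HFC, and 234, 257, 245 and 309 in KO HFC. In females it stood at 311, 308 and 311 CPM in CT CTD, 316, 333 and 291 in KO CTD, 226, 244 and 227 in CT HFC, and 135, 259 and 238 in KO HFC. The diets overlapped in males and did not in females, where KO HFC animal 412 was the lowest of all. The difference averaged over genotypes was -0.34 in males (SE 0.08, edgeR adjusted p = 0.0032) and -0.49 in females (SE 0.14, edgeR adjusted p = 0.0245). The female call was lost without animal 306, 307, 309 or 420 (edgeR adjusted p up to 0.0617). With library totals, or limma on the deposited CPM, both calls were lost with the same sign. The adjusted p of edgeR or limma then reached 0.376 in males and 0.221 in females. Hspe1 gave -0.16 in males (edgeR adjusted p = 0.106) and -0.29 in females (edgeR adjusted p = 0.137), the same sign without passing the test.

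Among the purine genes Ppat, the enzyme of the committed first step, fell in both sexes. Its male values were 29.9, 31.4, 31.9 and 29.4 CPM in CT CTD, 27.5, 28, 31.7 and 30.8 in KO CTD, 23.8, 26.9, 22.1 and 27.2 in CT HFC, and 21.1, 22.4, 28.9 and 30.7 in KO HFC. The CT groups did not overlap, while KO HFC animals 539 and 540 lay among the CTD males. In females it stood at 16.2, 15.8 and 20.6 CPM in CT CTD, 18.8, 23.0 and 19.7 in KO CTD, 15.3, 16.2 and 12.9 in CT HFC, and 12, 14.3 and 15.5 in KO HFC. The difference was -0.24 in males (SE 0.08, edgeR adjusted p = 0.0157) and -0.40 in females (SE 0.11, edgeR adjusted p = 0.0195). With library totals the male sign turned, to 0.005. The female call was lost with library totals and with limma on the deposited CPM, with the same sign (edgeR or limma adjusted p up to 0.496). Paics, its head-to-head neighbor, differed by -0.15 in males (edgeR adjusted p = 0.0760) and by -0.43 in females (SE 0.15, edgeR adjusted p = 0.0566). In females Paics stood at 177, 172 and 198 CPM in CT CTD, 188, 166 and 170 in KO CTD, 137, 153 and 122 in CT HFC, and 81.0, 163 and 142 in KO HFC, without overlap between diets. Without animal 412, Paics passed the test in females and Mybbp1a no longer did. In pyrimidine synthesis Cad had the other sign, at 0.32 in females (edgeR adjusted p = 0.0949).

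Among ribosome assembly genes the directions were mixed. Gnl3 rose in females, from 28.1, 25.9 and 29.1 CPM in CT CTD and 27.0, 21.6 and 22.6 in KO CTD to 32.4, 30.2 and 28.1 in CT HFC and 35.6, 32.0 and 39.9 in KO HFC. The overlap was confined to the CT animals, and the difference was 0.36 (SE 0.09, edgeR adjusted p = 0.0117). In males Gnl3 stood at 29.5, 20.3, 22.3 and 24.8 CPM in CT CTD, 28.9, 28.1, 30.9 and 23.9 in KO CTD, 36.3, 28.2, 33.3 and 26 in CT HFC, and 26.5, 32.9, 24.1 and 36.1 in KO HFC, a difference of 0.23 with wide overlap (edgeR adjusted p = 0.0837). Mybbp1a rose in females, at 50.4, 41.7 and 37.4 CPM in CT CTD, 44.3, 45.3 and 45.2 in KO CTD, 55.1, 53.4 and 50.1 in CT HFC, and 65.4, 48.6 and 54.7 in KO HFC. The difference was 0.31 (SE 0.09, edgeR adjusted p = 0.0362), with 1 CTD animal within the HFC range. Leaving out any of 9 of the 12 females (all but 306, 413 and 512) lost this call, with edgeR adjusted p up to 0.089.

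In males the remaining calls were close to the threshold. Fbl, the methyltransferase of box C/D snoRNPs, rose from 19.8, 19.1, 19.8 and 18.2 CPM in CT CTD and 18.9, 19.6, 17.6 and 18.3 in KO CTD to 20.2, 23.3, 21.5 and 18.2 in CT HFC and 23.3, 21.4, 20.5 and 20.6 in KO HFC (0.16, SE 0.06, edgeR adjusted p = 0.0268). Only CT HFC animal 543 lay within the CTD range, and the call was lost without animal 304, 414, 417 or 418 (edgeR adjusted p up to 0.0636) and without the filter on low counts. Utp20, a scaffold of the early small subunit precursor, fell by 0.23 (SE 0.07, edgeR adjusted p = 0.0183). Its values were 23.2, 21.4, 24.8 and 23.5 CPM in CT CTD, 24.3, 21.1, 19.2 and 26 in KO CTD, 21.3, 20.6, 21.8 and 16 in CT HFC, and 19.9, 19.2, 17.3 and 20.2 in KO HFC, with the diets overlapping between 19.2 and 21.8 CPM. Rrp9, a protein of the U3 snoRNP, fell by 0.24 (SE 0.09, edgeR adjusted p = 0.0317). It stood at 9.95, 7.72, 6.03 and 8.57 CPM in CT CTD, 8.44, 7.82, 8.19 and 7.36 in KO CTD, 6.29, 7.11, 6.90 and 7.43 in CT HFC, and 6.66, 6.72, 6.45 and 6.64 in KO HFC. Leaving out animal 298, 301, 304, 320, 416, 418 or 539 lost the call (edgeR adjusted p up to 0.0759). Nolc1 fell by 0.18 (SE 0.07, edgeR adjusted p = 0.0451), from 25.7, 22.6, 26.9 and 21.3 CPM in CT CTD and 25.3, 25.9, 25.0 and 29.3 in KO CTD to 21.7, 19.5, 26 and 24.7 in CT HFC and 20.2, 20.9, 20.4 and 24.2 in KO HFC. Leaving out any of 9 males (301, 303, 311, 313, 414, 415, 416, 417 or 539) lost this call (edgeR adjusted p up to 0.0949), as did RLE size factors in edgeR, DESeq2 and no filter on low counts. For Utp20, Rrp9 and Nolc1 the sign turned with library totals, which put them at 0.021, 0.006 and 0.073. None of these 4 genes passed the test in females, and the difference between the sexes was not tested.

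**Figure D4:**
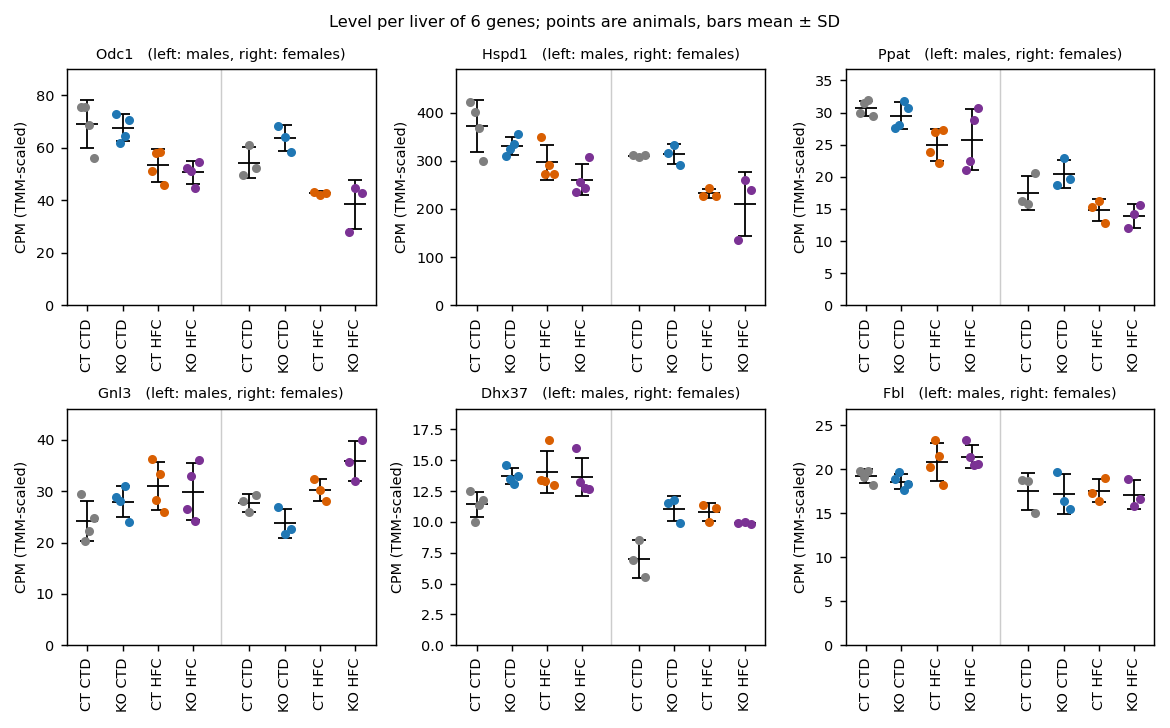
CPM on TMM-scaled library totals in every liver for Odc1, Hspd1, Ppat, Gnl3, Dhx37 and Fbl (points are animals, bars mean ± SD of the group, males left and females right of the grey line). HFC females lie below all CTD females for Odc1 and Hspd1. For Dhx37, the CT CTD animals of each sex lie below all others of that sex.

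Within single genotypes fewer genes passed. In male controls Dhx37 rose by 0.30 on HFC (SE 0.10, edgeR adjusted p = 0.0445) and Odc1 fell by 0.37 (SE 0.10, edgeR adjusted p = 0.0167), 2 of 43 against a background of 20% (10.6% higher and 9.4% lower). The Dhx37 call was lost without any of 11 of the 16 males (edgeR adjusted p up to 0.181, without CT HFC animal 418), without the filter on low counts and in a fit of only the groups compared, and that of Odc1 without animal 301, 305 or 543 (up to 0.059). In male knockouts Odc1 fell by 0.42 (edgeR adjusted p = 0.00543), Nolc1 by 0.30 (edgeR adjusted p = 0.0318) and Hspd1 by 0.34 (edgeR adjusted p = 0.0331), 3 of 43 against a background of 29.1% (15.5% higher and 13.6% lower). The Odc1 call held without any single animal, that of Nolc1 was lost without 303, 311, 414, 415 or 539 (up to 0.103), and that of Hspd1 without 303, 304, 311, 414, 415 or 539 (up to 0.0994). In female controls none of the 43 passed against a background of 2.19% (0.936% higher and 1.26% lower), with 6 of 43 at an unadjusted p under 0.05 where 2842 of all 13999 tested genes reached it. DESeq2 called 1 of the 43 there, and 6.56% of all genes. Dhx37 came nearest there at 0.63 (SE 0.16, edgeR adjusted p = 0.0573), followed by Rrp12 at 0.52 (SE 0.17, edgeR adjusted p = 0.129). The HFC values of Rrp12 in those controls were 6.07, 5.83 and 4.70 CPM, all above the CTD values given above. In female knockouts Gnl3 rose by 0.60 (edgeR adjusted p = 0.0101), Odc1 fell by 0.72 (edgeR adjusted p = 0.0147) and Ppat by 0.56 (edgeR adjusted p = 0.0373), 3 of 43 against a background of 8.59% (3.94% higher and 4.65% lower). That count rested on single animals, being 10 without KO HFC animal 413, 1 without KO CTD animal 307 and 0 without KO CTD animal 309. With library totals, or limma on the deposited CPM, every fall called within a single genotype was lost, with the same sign.

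Genes whose groups did not overlap were also counted. Between genotypes on HFC, 0 of 43 genes were wholly higher or lower in KO males (background 1.09% and 1.07%), and 1 was higher and 1 lower in KO females (background 2.8% and 2.66%). Over both diets together no gene of the 43 separated the genotypes (background 0.0071% each way in males and 0.00714% in females). Between diets in controls, 1 gene was wholly higher and 1 lower in males (background 11.4% and 10.2%), and 4 were higher and 7 lower in females (background 14.3% and 14.1%). Between diets in knockouts, 1 was higher and 6 lower in males (background 15.4% and 14.7%), and 3 were higher and 5 lower in females (background 12.2% and 14.1%). Over both genotypes, none separated the diets in males (background 6.55% and 5.27%), while in females 0 were higher and 3 lower (background 4.33% and 5.24%), namely Odc1, Hspd1 and Paics.

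Other genes of the same pathways were taken from lists that were also chosen with earlier results of these data known. They were tested for the diet averaged over genotypes, where 40.8% of all tested genes passed in males and 19.3% in females. Of 89 tested further ribosome biogenesis genes, 4 rose and 11 fell in males, among them the RNA helicase gene Ddx52 (-0.26), Rcl1 (-0.34) and Utp3 (-0.23), and 1 rose and 2 fell in females, namely Tbl3 (0.28), Taf1b (-0.55) and Nmd3 (-0.34). Their median was -0.04 in males and 0.01 in females. Of 35 further nucleotide and polyamine genes, 5 rose and 12 fell in males, and 2 rose and 7 fell in females. Shmt1, a folate-cycle enzyme, fell by 0.66 in males and by 0.90 in females, and Azin1, the antizyme inhibitor that protects Odc1 from degradation, fell by 0.43 and by 0.55. Mthfd1l, a mitochondrial folate enzyme, rose by 1.91 in males, and Uck1, a uridine kinase, fell by 0.86 in females. Adssl1, a purine nucleotide cycle enzyme, differed by 0.55 in males and by -0.91 in females, each past the threshold, and the difference between the sexes was not tested. In the Myc network, Mycl fell by 1.18, Mycn by 0.56 and Mlx by 0.28 in males, and Mxd1 rose by 0.53, Mlxip by 0.51 and Max by 0.30 in females. These lists had no gene that passed the KO tests averaged over diets.

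Marker genes of several cell types differed between the diets. Averaged over genotypes, 20.4% of all tested genes rose and 20.4% fell on HFC in males, and 10.4% and 8.98% in females. Of 10 macrophage and Kupffer cell markers, 10 rose on HFC in males, and 1 of 10 in females, a share near the background there. In males the summed level was 313 to 485 CPM in CT CTD and 268 to 320 in KO CTD. On HFC it was 658 to 1050 in CT and 835 to 1030 in KO males. Female sums overlapped between diets, at 269 to 882 in CT CTD, 276 to 809 in KO CTD, 644 to 959 in CT HFC and 510 to 1550 in KO HFC. Of 10 proliferation markers, 9 rose in males and 6 in females, from sums of 9.36 to 16.4 CPM on CTD to 18 to 58.5 on HFC in males, and in females CTD livers gave 13.5 to 19.3 and HFC livers 14.5 to 102. Of 10 T and NK cell markers 7 and 5 rose, and of the neutrophil markers all 4 tested in males and all 5 tested in females rose. Of 10 hepatocyte markers, 7 fell in males and 6 in females, with sums of 90100 to 127000 CPM on CTD and 76300 to 97800 on HFC in males, and 162000 to 188000 and 102000 to 150000 in females. Summed endothelial markers ran from 237 to 408 CPM on CTD and 273 to 441 on HFC in males. In females they ran from 185 to 279 and from 290 to 348, without overlap. Sums of stellate cell, cholangiocyte, and B and plasma cell markers overlapped between the diets in both sexes. Of the neutrophil markers, 1 was at 0 in CT CTD females, and no other marker list had a gene at 0 in a group. In bulk liver, fewer cells of a type and less RNA per cell cannot be told apart, and the part of these shifts in the diet differences of the 43 genes was not tested. In the KO comparison averaged over diets no marker passed, and all 10 endothelial markers were lower in KO males (median -0.28) and 7 of 10 in KO females (median -0.04).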

How the data were processed

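Bulk liver RNA of 28 mice was used, 16 males and 12 females, each table on its own. The submitters' processing notes name GRCm38 (mm10) as genome and list FastQC and edgeR as tools; for the aligner, counter, annotation and strandedness nothing is stated in the sources used here. The authors deposited whole-number counts per gene and CPM values; the deposited CPM equal each count over its library total (within 1e-04 CPM for 100% of values).

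Counts as deposited were filtered with filterByExpr by group, scaled with TMM and tested in edgeR 4.0.16 (R 4.3.3) by robust quasi-likelihood F tests, with 1 mean per group and dispersion shared over the 4 groups of a table (biological coefficient of variation 0.161 in males, 0.199 in females). Benjamini-Hochberg adjustment ran over all tested genes, with calls under 0.05. SE is the size of the log2 fold change over the square root of F, an approximation, and 95% intervals use it. Slopes used log2(CPM + 0.5) of Myc. The scripts were tested on simulated data. Alternatives were library totals, RLE factors, DESeq2 1.42.0, limma 3.58.1 on log2(deposited CPM + 0.5), no filter on low counts, only the groups compared, and leaving out each animal.

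Values in every animal are given for each gene called in a contrast, and for the 2 with the smallest p where none was; other lists are given as counts with up to 3 examples by smallest adjusted p, and further genes named were chosen after their values were seen. The genes and lists were chosen with earlier results of these data known. Labels name separate animals, so p-values measure the spread between mice. The labels mention no molecular identifiers, and intervals do not cover amplification error.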

Additional observations from a re-analysis of the deposited data

Results flagged for a closer look

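In the male groups of 4 animals, 176 combinations of gene and group (the 43 genes and Myc) were screened for a single animal standing apart, by the gap to its nearest neighbor over the range of the group against Dixon's 95% critical value. Chance alone marks about 1 in 20, and 11 were marked, a share near that. The females, with 3 animals a group, were not screened. In CT HFC, animal 418 was high for Cdk4, at 49.6 CPM with the next animal at 45.9, and for Dhx37, at 16.6 with the next at 13.4. The Dhx37 call in male controls was lost without animal 418, which is 1 of the 11 males whose removal lost it. In the same group, animal 416 was high for Hspe1, at 64.4 CPM against 52.3. In CT CTD, animal 320 was low for Hspe1, at 50.5 CPM against 67.2. In KO CTD, animal 311 was high for 3 genes, Gar1 at 4.17 CPM against 2.67, Nop56 at 22 against 19.4 and Pes1 at 29.6 against 27.2. Animal 303 of that group was high for Nop2, at 19.7 CPM against 17.2. In KO HFC, animal 540 was high for Nolc1, at 24.2 CPM against 20.9, and for Wdr12, at 14.6 against 12.3, while animal 414 was high for Srm, at 21.1 against 16.8. Causes were not tested.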

How the results depend on the processing

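All counts of called genes for KO, interaction and Myc slope stayed at 0 of 43 under every alternative run, leaving out each animal included. Diet counts depended on the scaling. With library totals they were 15 in male controls, 11 in male knockouts and 30 averaged over genotypes, and 7, 14 and 25 in females. Limma on the deposited CPM, which keeps those totals, gave 15, 10 and 29, and 7, 13 and 23. All of these calls were higher on HFC, while the main fit averaged over genotypes called more falls than rises in each sex. In the same diet comparisons, averaged over genotypes in males, library totals turned Nolc1 to 0.073, Rrp9 to 0.006, Utp20 to 0.021, Srm to 0.019 and Ppat to 0.005, and limma turned Nolc1 to 0.064, Rrp9 and Utp20 to 0.019, and Srm to 0.015. Without a filter on low counts male controls gave 1. DESeq2 gave 1 in female controls and 6 in female knockouts, and the fit of only the groups compared gave 0 in female knockouts. Leaving out 1 animal gave 0 to 4 in male controls, 1 to 5 in male knockouts, 6 to 12 averaged in males, 0 to 2 in female controls, 0 to 10 in female knockouts and 3 to 8 averaged in females. Over 21 calls and 417 refits, 307 kept the call, 101 lost it with the same sign and 9 turned sign. CANNTG in place of CACGTG was found in 27 promoters rather than 13. Apart from the scaling alternatives, whose construction sets the shift, the causes were not tested. No paired analysis was possible because animal numbers do not repeat across groups. Groups of 3 or 4 mice limit the precision, as the intervals show.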
